A study of Mus musculus with 4 samples.

Results

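The smooth muscle contractile apparatus set held 36 genes chosen by name: actins and their partners, myosins and myosin kinase, tropomyosins, intermediate filaments, myosin phosphatase subunits and the kinases Rock1 and Rock2, 2 transcription factors and 3 further genes. The choice was made with earlier results of these data known. All 36 were found among the 32287 features of the deposited matrices, and all 36 passed the expression filter of the gene test, which kept 14474 features. Single-cell RNA sequencing with unique molecular identifiers (UMIs, which count each captured RNA molecule once) was performed on smooth muscle cells of the mouse ascending aorta and aortic arch at 12 weeks of age, in 2 libraries per genotype. The wild-type libraries (WT; GFPiSMC) came from C57BL/6J mice of genotype Myh11-CreERT2.mT/mG, and the knockout libraries (KO; Tgfbr1/2iSMCKO) from mice that also carried floxed alleles of both receptors (Tgfbr1f/f.Tgfbr2f/f), so that the Cre and the reporter were shared by both genotypes. In both, tamoxifen was injected intraperitoneally for 5 days, at 1 or 2 mg per day begun at 4 or 11 weeks of age. The course each library received is not given in the sources used here, so a difference in course cannot be told apart from genotype. The Cre recombinase is driven by the promoter of Myh11, itself one of the 36 genes, and only viable single GFP-positive cells were sorted, so that past Myh11 promoter activity was a condition of entry in both genotypes. The number of mice behind a library is not given either, and p-values therefore measure only the spread between these libraries.

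Smooth muscle shortens when myosin heads pull on actin filaments that are anchored in dense bodies, the counterparts of the Z-discs of striated muscle. The pull is switched on when calcium activates myosin light chain kinase, which phosphorylates the regulatory light chain, and it is switched off by myosin phosphatase, which Rock1 and Rock2 inhibit. Many of the genes have a muscle-restricted and a non-muscle paralog, and the muscle copies are classically controlled by serum response factor (SRF) with its coactivator myocardin through a DNA element called the CArG box. TGF-β signalling through the receptors Tgfbr1 and Tgfbr2 is known to promote the contractile gene programme in cultured smooth muscle cells.

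After filtering, 2429 and 3265 WT cells and 4252 and 3522 KO cells remained, with 35255748 to 59203071 UMIs per library and median depths of 13898 to 15383 UMIs per cell. Between 10 and 13 cell barcodes of each library also occurred in another library. Each library's cells were summed to 1 value per gene, given as CPM, the gene's UMI count relative to the library's scaled total. The targeted receptors did not pass the gene test in these 3′ counts (Tgfbr1 log2 difference -0.13, adjusted p = 0.203; Tgfbr2 -0.04, adjusted p = 0.752), and a 3′ tag outside the deleted exons does not check a deletion. Marker lists of other cell types were low: 10 endothelial genes summed to 56.2 to 57 CPM in WT and 45.1 to 47.6 CPM in KO, 9 fibroblast genes to 137 to 159 CPM in WT and 127 to 129.6 CPM in KO, and 10 macrophage genes to 0.447 to 0.802 CPM in WT and 0.486 to 11 CPM in KO, with the higher macrophage value in KO 1. The endothelial fall was in Erg, at 27.5 and 28.3 CPM (WT) against 15.3 and 16.5 CPM (KO). The other 9 endothelial genes summed to 28.7 and 28.7 CPM (WT) against 32.3 and 28.6 CPM (KO). Col14a1 of the fibroblast list was at 123 and 143.5 CPM (WT) against 104 and 93.8 CPM (KO). The other 8 fibroblast genes were higher in KO, at 13.7 and 15.4 CPM (WT) against 22.7 and 35.8 CPM (KO). The 7 cardiomyocyte genes summed to 74.5 to 78.9 CPM in WT and 79.8 to 90.6 CPM in KO. Within that list Ryr2 was lower in KO, at 61.2 and 63.8 CPM in the WT libraries against 46.6 and 40.5 CPM in the KO libraries, and the other 6 genes together were higher, at 13.3 and 15.1 CPM (WT) against 44 and 39.3 CPM (KO), Actc1 among them. The 5 Schwann cell genes summed to 4.2 to 4.79 CPM in WT and 3.25 to 3.27 CPM in KO, with Sox10 at 0 in all libraries. Lymphocyte, erythrocyte and adipocyte genes summed to at most 0.258 CPM, with Cd3e, Cd79b, Nkg7, Hba-a2, Hbb-bs, Hbb-bt, Cidec and Retn at 0. The 10 smooth muscle markers outside the 36 genes were abundant but lower in KO, at 4093 to 4131 CPM in WT and 2830 to 3058 CPM in KO. Itga8 of this list was at 1785 and 1672 CPM (WT) against 1131 and 1222 CPM (KO). The other 9 genes summed to 2346 and 2421 CPM (WT) against 1699 and 1836 CPM (KO). The part of these differences in the results was not tested. In the fit without cells that held at least 3 UMIs of another type's markers (951 and 1446 WT cells and 1345 and 1136 KO cells), 10 of the 36 genes were higher and 7 lower. Over all 13552 features tested in that fit, 1232 were higher and 1502 lower. The identity of the cells left out was not examined.

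Between KO and WT, 10 of the 36 genes rose, 7 fell and 19 did not pass an adjusted p of 0.05 (edgeR's quasi-likelihood test with Benjamini-Hochberg adjustment over all 14474 features). Among all features tested, 20.3% were called, 9.17% higher and 11.1% lower. The called share of the 36 genes was 47.2%, with 27.8% higher and 19.4% lower. Because earlier results of these data were known at the choice of genes, this share cannot be read as a trait of the gene class. The median log2 difference of the 36 genes was 0.10, against -0.0037 over all tested features, and they ranged from -1.01 for Susd5 to 1.06 for Mustn1. Of the 5743 features at 20 CPM or more, 24.6% were called, 9.3% higher and 15.3% lower. The libraries of the genotypes did not overlap for 24 of the 36 genes, against 63.5% of all features, so non-overlap alone did not set the genes apart. The genes that rose were Actg2, Myh11, Myl9, Mylk, Tpm1, Tpm2, Des, Synm, Ppp1r12a and Mustn1, and those that fell were Tagln2, Smtn, Myh9, Myh10, Ppp1r14a, Rock1 and Susd5. In values summed over the cells of a library, fewer cells of a type and less RNA per cell cannot be told apart, and CPM are relative to all RNA of the library. The forest plot of the log2 differences orders them by role.

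**Figure D1:**
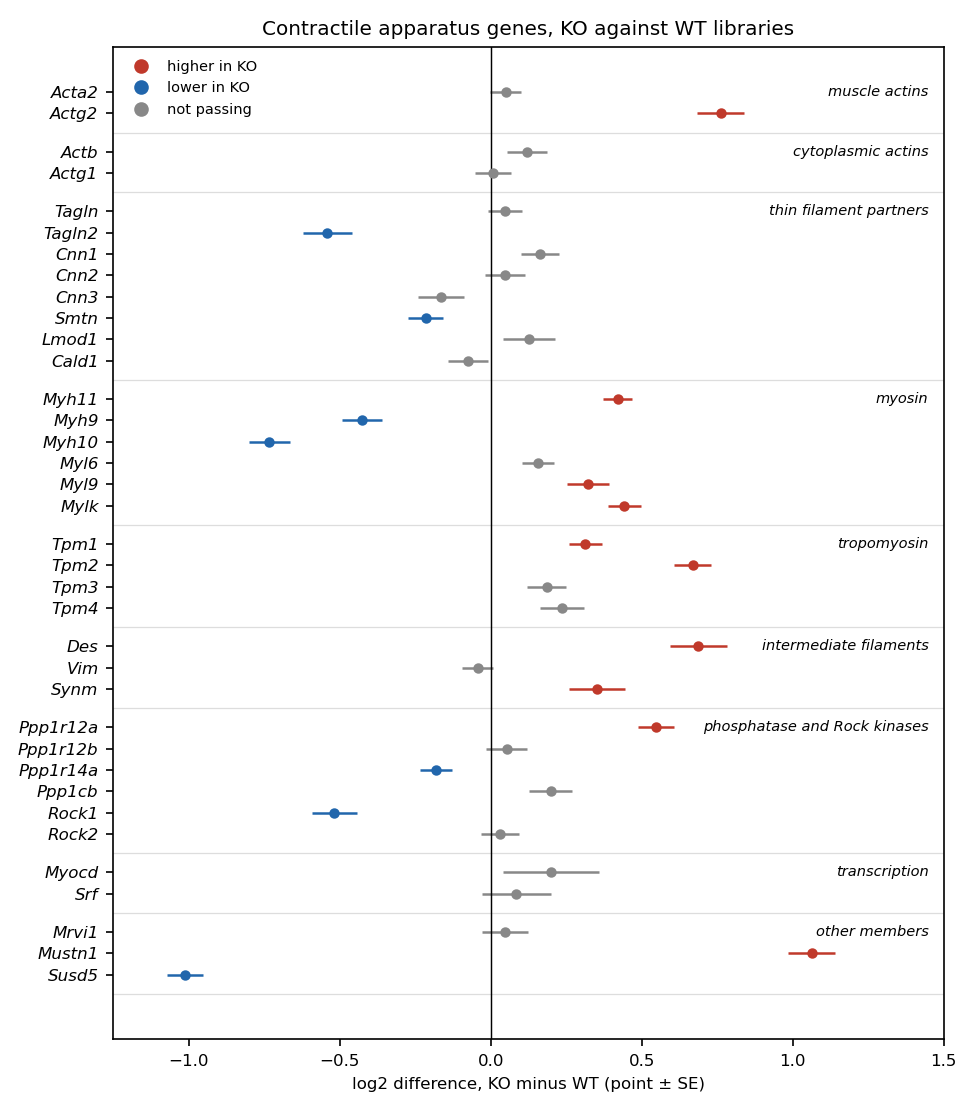
Log2 difference, KO minus WT, of each of the 36 genes (horizontal axis, points, bars ± SE from the edgeR fit, 2 libraries per genotype), grouped by role on the vertical axis, with genes past an adjusted p of 0.05 coloured by direction. Mustn1 (1.06) and Susd5 (-1.01) mark the ends of the range, and Acta2 (0.05) and Tagln (0.05) lie close to 0.

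The muscle actins moved unequally. Acta2, the α-actin of vascular smooth muscle, was at 22617 (WT 1), 24113 (WT 2), 24861 (KO 1) and 23484 CPM (KO 2), and the libraries of the genotypes overlapped (log2 difference 0.05, SE 0.05, adjusted p = 0.532). Actg2, the γ-actin more typical of visceral smooth muscle, was at 377 and 435 CPM in the WT libraries against 703 and 673 CPM in the KO libraries. Both KO libraries lay above both WT libraries, and Actg2 rose from 406 ± 41 to 688 ± 21.4 CPM (SD, n = 2; log2 difference 0.76, SE 0.08, adjusted p = 0.000455). The cytoplasmic actins did not pass the test: Actb was at 6902 and 6089 CPM (WT) against 7204 and 6912 CPM (KO) (log2 difference 0.12), and Actg1 was at 1583 (WT 1), 1489 (WT 2), 1499 (KO 1) and 1591 CPM (KO 2) (log2 difference 0.01).

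Among the thin filament partners, Tagln2 and Smtn fell, and the other 6 did not pass the test. Tagln, the actin-bundling transgelin (SM22α), was at 13142 and 13175 CPM in the WT libraries against 14288 and 12891 CPM in the KO libraries, with overlapping libraries (log2 difference 0.05, SE 0.06, adjusted p = 0.598). Cnn1, the calponin that binds actin and damps myosin's activity, was at 1601 and 1763 CPM (WT) against 1844 and 1919.7 CPM (KO) (log2 difference 0.16, SE 0.06, adjusted p = 0.112). Both KO values of Cnn1 exceeded both WT values, but the difference did not pass. Lmod1, a leiomodin that starts actin filaments, was at 1347 (WT 1), 1551 (WT 2), 1688 (KO 1) and 1477 CPM (KO 2), and Cald1, the actin-binding caldesmon, at 2881 and 3181 CPM in the WT libraries against 2982 and 2768 CPM in the KO libraries, and neither passed (log2 differences 0.13 and -0.08). The calponins Cnn2 and Cnn3, found widely outside muscle, had log2 differences of 0.05 and -0.17 with adjusted p = 0.653 and 0.168. Cnn3 was called lower without KO 2 (log2 difference -0.27, adjusted p = 0.0308).

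Tagln2, the widely expressed transgelin, was at 628 and 696 CPM (WT) against 485 and 425 CPM (KO). The lower WT value stood above the higher KO value, and the gene fell from 662 ± 47.5 to 455 ± 42 CPM (SD, n = 2; log2 difference -0.54, SE 0.08, adjusted p = 0.00296). Smtn, smoothelin, an actin-binding protein of contractile smooth muscle, was at 778 (WT 1), 739 (WT 2), 657 (KO 1) and 649.5 CPM (KO 2). It fell by a smaller amount (log2 difference -0.22, SE 0.06, adjusted p = 0.0338), and this call was lost when any 1 library was left out: the log2 difference was then -0.18 without WT 1 (adjusted p = 0.204), -0.25 without WT 2 (0.0643), -0.23 without KO 1 (0.0608) and -0.21 without KO 2 (0.079). In this and every other fit with a library left out, 1 genotype has a single library, which is assumed to vary like the libraries of the other genotype.

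Among the myosins, the muscle heavy chain rose and both non-muscle heavy chains fell. Myh11, the smooth muscle myosin heavy chain (chr16:14194535-14291372 in GRCm38), was at 5207 and 5417 CPM in the WT libraries against 7194 and 7028 CPM in the KO libraries. The KO libraries lay well above the WT libraries and close to each other, and the gene rose from 5312 ± 148 to 7111 ± 118 CPM (SD, n = 2; log2 difference 0.42, SE 0.05, adjusted p = 0.000806). Myh10, the non-muscle heavy chain IIB, was at 438 and 468 CPM (WT) against 283 and 262 CPM (KO). The order of the genotypes was the opposite, with a fall from 453 ± 21.2 to 273 ± 15.3 CPM (SD, n = 2; log2 difference -0.73, SE 0.07, adjusted p = 0.000301). Myh9, the non-muscle heavy chain IIA, was at 92.9 (WT 1), 89.8 (WT 2), 65.8 (KO 1) and 70.2 CPM (KO 2), and it fell as well (log2 difference -0.43, SE 0.07, adjusted p = 0.00368).

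The kinase and the regulatory light chain rose with the muscle heavy chain. Mylk, the calcium-activated kinase that phosphorylates the light chain, was at 1458 and 1547 CPM in the WT libraries against 2051 and 2032 CPM in the KO libraries. All KO values lay above all WT values (log2 difference 0.44, SE 0.06, adjusted p = 0.00122). Myl9, the regulatory light chain that Mylk phosphorylates, was at 4172 and 4381 CPM (WT) against 5703 and 4989.6 CPM (KO) (log2 difference 0.32, SE 0.07, adjusted p = 0.0141), and its call was lost without WT 1 (log2 difference 0.28, adjusted p = 0.0705). Myl6, the essential light chain shared by smooth and non-muscle myosin, was at 9224 (WT 1), 8948 (WT 2), 10542 (KO 1) and 9735 CPM (KO 2) and did not pass (log2 difference 0.16, SE 0.05, adjusted p = 0.0729). It passed with library totals alone, with no expression filter and without KO 2 (in the last, log2 difference 0.22, adjusted p = 0.0189).

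Tropomyosins, which lie along the actin filament and govern myosin's access to it, had the largest KO to WT ratio of summed CPM among the roles. Tpm2, the β-tropomyosin (chr4:43514711-43523765), was at 5398 and 5308 CPM in the WT libraries against 8984 and 8039 CPM in the KO libraries. The KO libraries were far above the WT libraries, and Tpm2 rose from 5353 ± 64.2 to 8512 ± 668 CPM (SD, n = 2; log2 difference 0.67, SE 0.06, adjusted p = 0.000263). Tpm1, the α-tropomyosin, was at 3813 and 4138 CPM (WT) against 4957 and 4920.3 CPM (KO) and rose less (log2 difference 0.31, SE 0.06, adjusted p = 0.00607). The cytoplasmic forms Tpm3 and Tpm4 were also higher in both KO libraries than in both WT libraries, but did not pass (log2 differences 0.19 and 0.24, adjusted p = 0.0838 and 0.0548). Tpm4 passed in 5 of 16 alternatives: library totals alone, DESeq2, no expression filter, thinned cells and without KO 1 (adjusted p = 0.0397, 0.0277, 0.0108, 0.0288 and 0.0169). The 4 genes together gave 9504 (WT 1), 9734 (WT 2), 14266 (KO 1) and 13307 CPM (KO 2), a KO to WT ratio of 1.43 on the summed CPM.

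**Figure D2:**
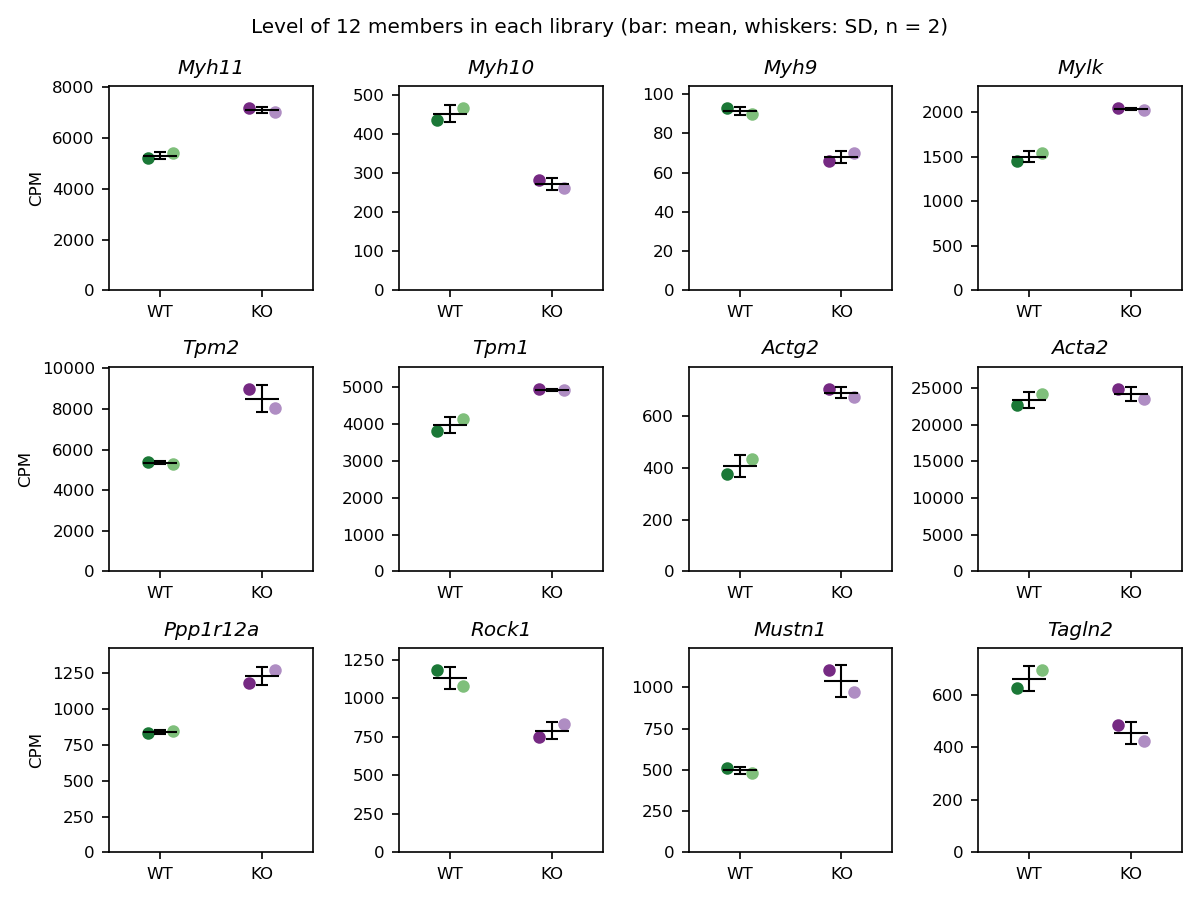
CPM of 12 of the genes in each library (points; WT and KO on the horizontal axis, 2 libraries each, with the mean as a line and the SD as a bar; each panel has its own vertical scale). Tpm2, Myh11, Mylk and Mustn1 stand higher in both KO libraries, Myh10, Rock1 and Tagln2 stand lower, and the Acta2 libraries overlap.

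Intermediate filament genes split by member. Des, desmin, the muscle intermediate filament protein, was at 121 and 102 CPM in the WT libraries against 187 and 172 CPM in the KO libraries, with no overlap, and rose from 111 ± 13.9 to 179 ± 11 CPM (SD, n = 2; log2 difference 0.69, SE 0.09, adjusted p = 0.00179). Synm, synemin, which pairs with desmin and vimentin, was at 40.9 and 34.8 CPM (WT) against 46.2 and 50.3 CPM (KO) (log2 difference 0.35, SE 0.09, adjusted p = 0.0322). The Synm call was lost without WT 2 (log2 difference 0.24, adjusted p = 0.159) and without KO 2 (0.29, 0.101). Vim, vimentin, the filament protein of mesenchymal cells, was at 6323 (WT 1), 5935 (WT 2), 5939.8 (KO 1) and 5959.9 CPM (KO 2), with overlapping libraries (log2 difference -0.04, SE 0.05, adjusted p = 0.592).

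Regulators of myosin dephosphorylation moved in opposite directions. Ppp1r12a, the targeting subunit MYPT1 that brings the phosphatase to myosin, was at 833 and 851 CPM in the WT libraries against 1186 and 1275 CPM in the KO libraries. It was higher in both KO libraries and rose from 842 ± 13.1 to 1230.3 ± 62.7 CPM (SD, n = 2; log2 difference 0.55, SE 0.06, adjusted p = 0.000633). Rock1, a kinase that phosphorylates and inhibits that subunit, was at 1185 and 1080.5 CPM (WT) against 750.4 and 832 CPM (KO). Both KO values lay below both WT values, and Rock1 fell from 1133 ± 74 to 791 ± 58 CPM (SD, n = 2; log2 difference -0.52, SE 0.07, adjusted p = 0.00218). Its paralog Rock2 was at 419.7 (WT 1), 423 (WT 2), 414 (KO 1) and 447 CPM (KO 2), with overlapping libraries (log2 difference 0.03, SE 0.06, adjusted p = 0.766).

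Ppp1r14a, the phosphatase inhibitor CPI-17, was at 1104 and 1123 CPM in the WT libraries against 968 and 996 CPM in the KO libraries and fell slightly (log2 difference -0.18, SE 0.05, adjusted p = 0.0497). That call lay at the threshold and was lost when any 1 library was left out, at -0.20 without WT 1 (adjusted p = 0.156), -0.17 without WT 2 (0.185), -0.16 without KO 1 (0.134) and -0.20 without KO 2 (0.066). The catalytic subunit Ppp1cb was at 412 and 369 CPM (WT) against 439 and 457 CPM (KO) (log2 difference 0.20, SE 0.07, adjusted p = 0.086). The second targeting subunit, Ppp1r12b, had overlapping libraries at 395 (WT 1), 412 (WT 2), 398 (KO 1) and 439 CPM (KO 2) (log2 difference 0.05, adjusted p = 0.624).

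The transcription factors of the programme did not pass the test. Myocd, the coactivator myocardin, was at 82.1 and 67.4 CPM in the WT libraries against 70.8 and 101 CPM in the KO libraries, with KO 1 inside the WT range and KO 2 above it (log2 difference 0.20, SE 0.16, adjusted p = 0.419). Without KO 1 the Myocd difference was 0.43 (adjusted p = 0.0268), and without KO 2 it was -0.08 (0.708). Srf was at 19.2 and 18.4 CPM (WT) against 17.6 and 22.2 CPM (KO), with overlapping libraries (log2 difference 0.09, SE 0.11, adjusted p = 0.64).

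Promoter windows from RefSeq (GRCm38.p6, 250 bases before to 50 after each annotated start) were found for 30 of the 36 genes and not for Actb, Actg2, Myh11, Myocd, Rock1 and Tagln. They were searched on both strands for the CArG box, taken as an exact match of 10 bases: CC, then only A or T, then GG. Boxes that depart from these letters or lie outside the window would be missed. A gene without a match is therefore not shown to lack a box. At least 1 copy was present in 5 of the 30 genes (16.7%), against 488 of 27025 genes with a window (1.81%). These 5 genes were Actg1, Cnn2, Myl6, Myl9 and Srf, and of them Myl9 rose and the other 4 did not pass. The copies are shown here because the box is the element through which SRF acts on this gene class, with the box in capitals and 10 bases on either side, each read 5′ to 3′ on its gene's strand. On the GENCODE model of its gene, the Myl6 window overlapped an exon and the other windows lay upstream of the gene.
Actg1, chr11:120348566-120348595, minus strand: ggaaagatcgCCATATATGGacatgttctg
Cnn2, chr10:79988534-79988563, plus strand: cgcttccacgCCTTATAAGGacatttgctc
Myl6, chr10:128493040-128493069, minus strand: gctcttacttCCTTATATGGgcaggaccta
Myl9, chr2:156775293-156775322, plus strand: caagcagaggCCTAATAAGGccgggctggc
Srf, chr17:46556205-46556234, minus strand: agcggcctcgCCATAAAAGGaaacattgta
Srf, chr17:46556225-46556254, minus strand: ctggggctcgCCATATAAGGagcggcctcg
The boxes began 90, 56, 50, 161, 62 and 82 bases upstream of the annotated start, in the order shown, and the Srf windows overlap each other. The TEAD element GGAATG was present in 12 of the 30 genes (40%), against 16.6% of all genes, and the SMAD element CAGAC in 14 of the 30 (46.7%), against 53.2%. None of the 3 motifs contains another, and a match describes letters in a window, not a bound site.

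The further genes held the extremes. Mustn1, a small nuclear protein of muscle and skeletal tissue (chr14:30879200-30881610), was at 514 (WT 1), 480.2 (WT 2), 1107 (KO 1) and 969.5 CPM (KO 2), and rose from 497 ± 23.7 to 1038 ± 96.9 CPM (SD, n = 2; log2 difference 1.06, SE 0.08, adjusted p = 8.68e-05). Susd5, a sushi-domain gene (chr9:114057140-114098728), was at 324 and 314 CPM in the WT libraries against 159 and 157 CPM in the KO libraries, and fell from 319 ± 7.24 to 158 ± 1.23 CPM (SD, n = 2; log2 difference -1.01, SE 0.06, adjusted p = 3.32e-05). In neither gene did the libraries of the genotypes overlap. Mrvi1, the IP3-receptor-associated substrate of cGMP-dependent kinase, was at 248 and 247 CPM (WT) against 239 and 274 CPM (KO) (log2 difference 0.05, SE 0.08, adjusted p = 0.693).

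Summed over its genes, the apparatus took a larger share of the UMIs in both KO libraries than in either WT library. All 36 genes together gave 94606 (WT 1), 95898 (WT 2), 108810 (KO 1) and 102970 CPM (KO 2), and, as a mean share of the unscaled UMI totals, 9.43% in WT and 10.7% in KO. The 7 smooth muscle isoforms (Acta2, Actg2, Tagln, Myh11, Cnn1, Tpm2 and Des) summed to 48451 and 50298 CPM in the WT libraries against 58044 and 54191 CPM in the KO libraries (log2 difference 0.18). The 10 non-muscle paralogs summed to 16914 and 15701 CPM (WT) against 16403 and 16197 CPM (KO), with overlapping libraries (log2 difference 0.00). The myosin genes, with the kinase Mylk included, summed to 20585 (WT 1), 20845 (WT 2), 25830.4 (KO 1) and 24109 CPM (KO 2). For each sum in which the genotypes did not overlap, the two-sided exact permutation test gave p = 0.333, the smallest value that 2 against 2 libraries allow.

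Isoform use within families was compared as each gene's share of its family's UMIs, which cancels library scaling. Each captured molecule gives 1 tag near its 3′ end, so the shares were not divided by gene length. Myh11 made up 90.7% and 90.7% in the WT libraries against 95.4% and 95.5% in the KO libraries of the myosin heavy chain UMIs, a gain of 4.72 percentage points, while Myh10 made up 7.63% and 7.83% (WT) against 3.76% and 3.56% (KO) and Myh9 1.62% (WT 1), 1.5% (WT 2), 0.873% (KO 1) and 0.953% (KO 2). Tpm2 made up 56.8% and 54.5% in the WT libraries against 63% and 60.4% in the KO libraries of the tropomyosin UMIs, and the share of Tpm1 was 40.1% and 42.5% (WT) against 34.7% and 37% (KO), so that Tpm1 held a smaller share in KO although its CPM rose. Within the phosphatase targeting subunits, Ppp1r12a went from a mean of 67.6% to 74.6%, and within the sum of Rock1 and Rock2, Rock1 went from 72.8% to 64.7%. Tagln2 went from a mean of 4.79% to 3.24% of the transgelin UMIs. Des took 1.87% (WT 1), 1.67% (WT 2), 3.03% (KO 1) and 2.78% (KO 2) of the UMIs of Des, Vim and Synm.

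The share of Acta2 among the 4 actins was 71.8% and 75.1% in the WT libraries against 72.5% and 71.9% in the KO libraries, with overlapping libraries. The share of Actg2 was 1.2% and 1.35% (WT) against 2.05% and 2.06% (KO), without overlap. Cnn1 took 70.9% (WT 1), 73.1% (WT 2), 75.4% (KO 1) and 75.3% (KO 2) of the calponin UMIs. In each share that did not overlap between genotypes, p was again 0.333 by the same exact permutation test.

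**Figure D3:**
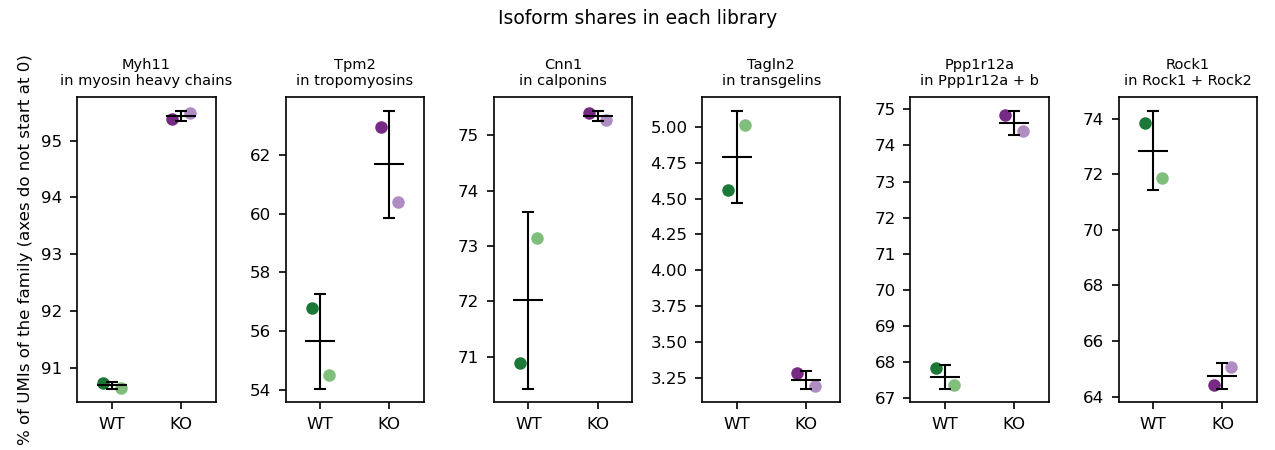
Share of the family's UMIs, in percent, held by 6 of the genes in each library (points; 2 WT and 2 KO libraries on the horizontal axis, with the mean as a line and the SD as a bar; vertical axes do not start at 0). Myh11, Tpm2 and Ppp1r12a hold larger shares in both KO libraries and Rock1 a smaller one.

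To see whether the sums reflected most cells or a few, every cell with at least 5000 UMIs was thinned to exactly 5000, which left out 197 and 162 WT cells and 150 and 169 KO cells. The smooth muscle isoforms together had medians of 237 and 245 UMIs in the WT libraries and 291 and 274 in the KO libraries per thinned cell. The median of Tpm2 was 26 and 25 UMIs in the WT libraries and 44 and 39 in the KO libraries. The median for Myh11 was 24 and 24 UMIs in the WT libraries and 33 and 33 in the KO libraries, and for Mylk 7 and 7 UMIs in the WT libraries and 10 and 10 in the KO libraries. Medians of Acta2 were 109 and 114 UMIs in the WT libraries and 120 and 116 in the KO libraries, against quartiles of 85 and 135 within WT 1. Mustn1 had 2 and 1 UMIs in the WT libraries and 4 and 3 in the KO libraries.

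The level in the median WT cell (the mean of the 2 WT medians) was then used as a mark for counting cells. For Tpm2, 51.7% and 48.4% of WT cells and 89.4% (3667 of 4102) and 82.5% (2766 of 3353) of KO cells lay above it. The corresponding shares without thinning, on UMIs per 5000 in all kept cells, were 50.3% and 49.7% in WT and 89.4% and 82.5% in KO. For Myh11, 48.1% and 49.6% of WT cells and 71.8% and 71.2% of KO cells were above the mark (unthinned 49% and 50.8% in WT and 72.9% and 71.4% in KO). For Rock1 the shares were 47.8% and 40.7% in WT and 20.3% and 25.5% in KO (unthinned 52.8% and 46% in WT and 20.2% and 27.2% in KO). For Acta2 they were 47.3% and 52.3% in WT and 57.8% and 54.2% in KO (unthinned 47.6% and 52.4% in WT and 59.3% and 54.7% in KO). The Tpm2 distribution as a whole was thus displaced, the Myh11 distribution less so, and the Acta2 distributions lay mostly on top of each other. Because of ties at low counts, the WT shares need not be near the middle.

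**Figure D4:**
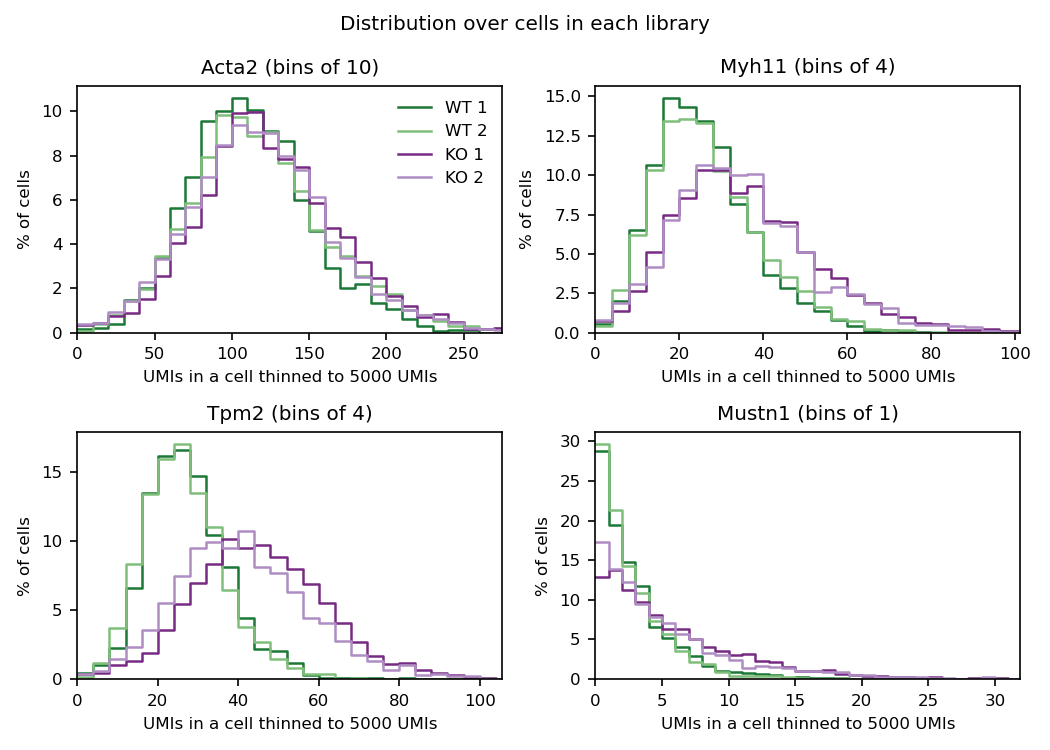
Distribution over cells of the UMIs of Acta2, Myh11, Tpm2 and Mustn1 per cell thinned to 5000 UMIs (horizontal axis, UMIs; vertical axis, percent of the library's cells; 1 line per library, coloured by genotype). The Tpm2 lines of the KO libraries are displaced to the right, with medians of 44 and 39 against 26 and 25, and the Acta2 lines overlap.

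Variation between cells was described by the variance over the mean of the thinned counts, which is close to 1 for pure counting noise, as seen for Srf (0.995 and 1.01 in the WT libraries against 1.04 and 0.991 in the KO libraries). For Tpm2 it was 3.71 and 3.8 (WT) against 6.09 and 6.58 (KO), for Myh11 5.31 (WT 1), 5.93 (WT 2), 8.15 (KO 1) and 7.88 (KO 2) and for Tagln 6.64 and 7.33 in the WT libraries against 9.24 and 10.5 in the KO libraries, each higher in both KO libraries. For Acta2 it was 14.1 and 17.3 (WT) against 17.4 and 17.4 (KO), and WT 2 was near the KO libraries. This ratio tends to grow with the mean, which also rose for Tpm2 and Myh11, whereas the Tagln level overlapped between genotypes. Des was concentrated in few cells: the top 5% of cells held 61% (WT 1), 61.8% (WT 2), 58% (KO 1) and 69.7% (KO 2) of its UMIs. For Acta2 the top 5% of cells held 9.24% and 9.54% in the WT libraries against 9.42% and 9.5% in the KO libraries. This share tends to fall as the mean rises, and the mean of Acta2 was far higher. Tpm3, whose mean was below that of Des in every library, had 25.9% and 25.7% (WT) against 23.2% and 24.3% (KO). The variance over the mean of Des was 5.79 and 5.01 (WT) against 7.58 and 9.79 (KO). In the lower 95% of cells the mean of Des was 0.246 and 0.206 UMIs (WT) against 0.391 and 0.252 UMIs (KO), so KO 2 lay close to WT there. Outside the top 5% of cells the mean of Actg2 was 1.47 (WT 1), 1.76 (WT 2), 2.93 (KO 1) and 2.77 UMIs (KO 2), and that of Mustn1 2.03 and 1.87 UMIs in the WT libraries against 4.59 and 4.01 UMIs in the KO libraries, so in these genes the difference was also present in the bulk of the cells.

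Across thinned cells, the abundant genes did not vary as a single block. The 14 genes at 1000 CPM or more in both genotypes gave 91 pairs, and Pearson's r is given as a description only, since the values of a pair share a library, a fixed total and a cell. Acta2 and Tagln had r of 0.55 and 0.58 (WT) against 0.58 and 0.60 (KO). Acta2 with Tpm2 ranged over the libraries from 0.53 to 0.59, and Myl6 with Tpm2 from 0.50 to 0.59. Myh11 instead varied with Mylk (r of 0.42 (WT 1), 0.48 (WT 2), 0.53 (KO 1) and 0.54 (KO 2)) and with Tpm1 (0.46 to 0.50). Between Acta2 and Myh11, the genes most used to mark the contractile state, r was 0.00 and -0.05 in the WT libraries against 0.06 and 0.09 in the KO libraries.

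Grouped by the length of the gene on the chromosome, a division at 20 kb made after the values were seen, the 36 pairs of 9 shorter genes had median r of 0.20 and 0.20 (WT) and 0.24 and 0.22 (KO). The 10 pairs of the 5 longer genes (Tpm1, Lmod1, Myh11, Cald1 and Mylk) had median r of 0.23 and 0.24 (WT) and 0.27 and 0.26 (KO). The 45 mixed pairs had median r of 0.01 and 0.02 (WT) and 0.06 and 0.08 (KO), and r reached 0.3 in all 4 libraries in none of them, compared with 11 and 3 pairs in the other groups. The nuclear RNA Malat1 and the mitochondrial share of a cell moved with some of these genes. In both WT libraries, r with Malat1 was lower for each of the 9 shorter genes than for each of the 5 longer genes. In the KO libraries the groups overlapped. The mitochondrial share did not divide the genes by length in any library. With Malat1, r over the libraries was -0.30 to -0.26 for Acta2, -0.29 to -0.22 for Tpm2 and -0.35 to -0.32 for Myl6, but 0.03 to 0.09 for Myh11. The longer Tpm1 had r of 0.02 and -0.01 (WT) against -0.08 and -0.09 (KO). Lmod1, also longer, had 0.002 and 0.01 (WT) against -0.03 and -0.07 (KO). For the shorter Actg1 these were -0.08 and -0.02 (WT) against -0.05 and -0.04 (KO). With the mitochondrial share, r over the libraries was -0.16 to -0.09 for Acta2 and 0.16 to 0.23 for Myh11. The shorter Myl6 (-0.07 to 0.01) and the longer Cald1 (-0.05 to -0.01) were both near 0. The part of either in the pattern was not tested.

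**Figure D5:**
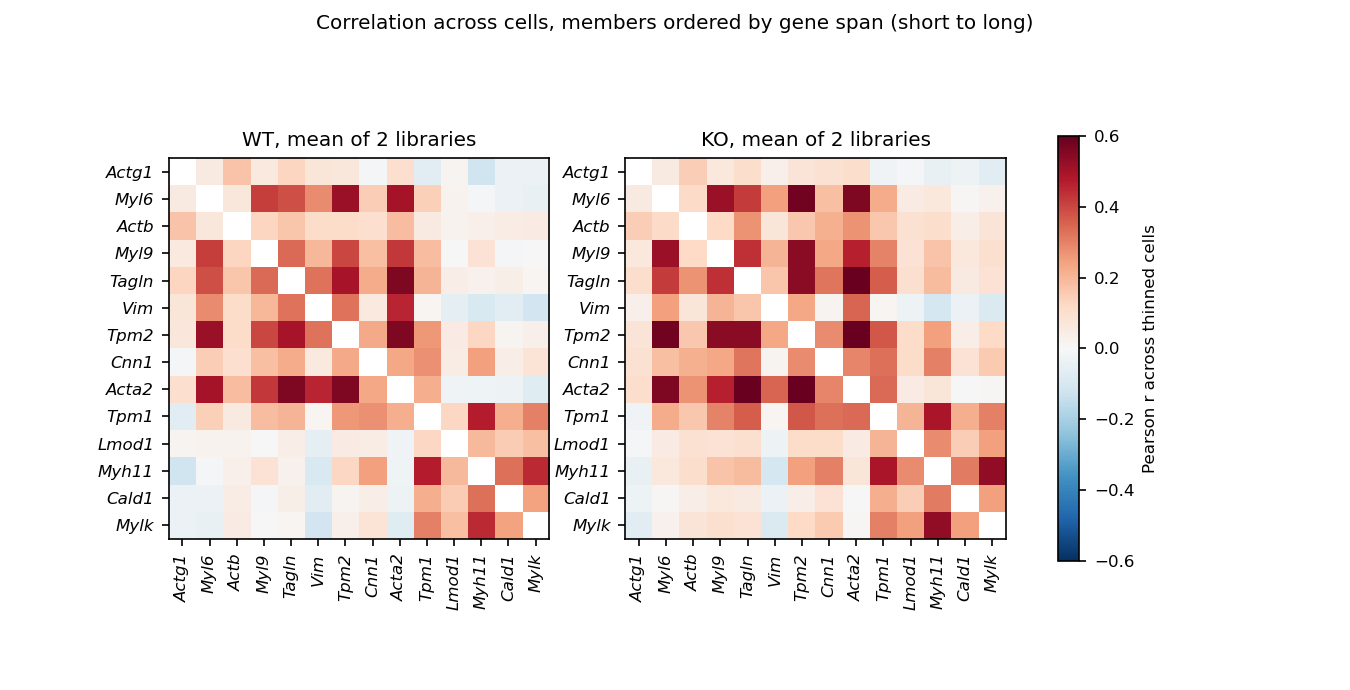
Pearson's r across thinned cells between the 14 genes at 1000 CPM or more in both genotypes (rows and columns ordered by gene span, shortest first; left panel WT, right panel KO, each the mean over its 2 libraries; colour gives r). Acta2, Tagln, Tpm2 and Myl6 form one block, Tpm1, Myh11, Cald1 and Mylk another, and Acta2 with Myh11 is near 0 in both panels. The blocks are not closed: per library, Tpm1 with Acta2 had r of 0.20 and 0.24 (WT) against 0.32 and 0.36 (KO). Cnn1 with Myh11 had r of 0.25 and 0.23 (WT) against 0.31 and 0.29 (KO). Cnn1 with Acta2 had r of 0.24 and 0.22 (WT) against 0.29 and 0.29 (KO).

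The lists of genes related to the apparatus gave the surroundings of these changes. They too were drawn up with earlier results of these data known, which limits what their called shares can show. Among 26 tested family paralogs and related filament genes, 7 rose, 4 fell and 15 did not pass (26.9% higher and 15.4% lower, against 9.17% and 11.1% of all features; median log2 difference 0.17, against -0.0037). Actc1, the cardiac α-actin, was at 0.487 and 0.609 CPM (WT) against 29.9 and 26.1 CPM (KO) and rose (log2 difference 5.65, SE 0.15, adjusted p = 6.86e-07). Mylk4, a myosin light chain kinase family member, was at 385 (WT 1), 341 (WT 2), 60.9 (KO 1) and 59.2 CPM (KO 2) and fell (log2 difference -2.60, SE 0.08, adjusted p = 1.47e-06), opposite to Mylk. Synpo, the actin-binding synaptopodin, which is not a paralog of the 36 genes, fell from 129 ± 9.2 to 71 ± 0.636 CPM (SD, n = 2; log2 difference -0.86, SE 0.07, adjusted p = 0.000172).

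Of 46 dense body and actin-binding genes, 6 rose, 14 fell and 26 did not pass (median -0.03). These were 13.0% higher and 30.4% lower, against 9.17% and 11.1% of all features. Of features at 20 CPM or more, 9.3% were higher and 15.3% lower. Csrp2, a LIM protein of smooth muscle, was at 3963 and 4215 CPM in the WT libraries against 1403 and 1351 CPM in the KO libraries and fell (log2 difference -1.57, SE 0.06, adjusted p = 2.98e-06). Pdlim1, a PDZ and LIM protein that binds α-actinin, was at 297 and 298 CPM (WT) against 105 and 107 CPM (KO) and fell (log2 difference -1.49, SE 0.06, adjusted p = 4.52e-06), while Ablim1, an actin-binding LIM protein, was at 11.4 (WT 1), 12.1 (WT 2), 36.9 (KO 1) and 46.7 CPM (KO 2) and rose (log2 difference 1.83, SE 0.12, adjusted p = 5.43e-05). Of 39 tested SRF cofactors and other regulators, 4 rose, 6 fell and 29 did not pass (median -0.10). These shares, 10.3% higher and 15.4% lower, were near the 9.3% and 15.3% of features at 20 CPM or more. Of all features, 9.17% were higher and 11.1% lower. The 15.4% lower of the paralog list was likewise near the 15.3% of features at 20 CPM or more. Heyl, a Notch target, was at 132 and 135 CPM in the WT libraries against 43.8 and 27.9 CPM in the KO libraries and fell (log2 difference -1.89, SE 0.18, adjusted p = 0.00029), Klf2, a flow-responsive transcription factor, fell (log2 difference -1.88, adjusted p = 3.33e-05), and Zeb2, a zinc-finger repressor, rose (log2 difference 0.82, SE 0.07, adjusted p = 0.000159).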

How the data were processed

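The authors deposited, per library, a matrix of UMI counts per gene and cell from 3′ Chromium v3.1 libraries, and per the file headers the software was Cell Ranger 5.0.1. The submitters' processing notes also name the build mm10 and Seurat 4.0, with no role given. The deposited counts were used as they stand; no column was left unused.

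A cell was kept if it had 1000 UMIs or more, 500 genes or more and a mitochondrial share of no more than 10%: 13468 of 14696 barcodes (2429 and 3265 WT, 4252 and 3522 KO). The labels state 2597, 3420, 4376 and 3707 cells before and 2151, 3000, 4031 and 3246 after the authors' filter, which is not given in the sources used here. No clustering was done and no doublet caller was run; leaving out the 5% of cells with most UMIs was an alternative. Counts were summed per library, scaled by TMM and tested with edgeR 4.0.16 (R 4.3.3; filterByExpr, glmQLFit and glmQLFTest, Benjamini-Hochberg over all 14474 features). CPM use TMM-scaled library sizes. Single sums, shares and medians were compared by two-sided exact permutation tests over libraries. Per-cell values used cells thinned to 5000 UMIs (seed 1). Scripts were tested on simulated data.

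All 36 genes are reported, and from each related list described the 3 genes with the smallest p. Results of 1 further list are not reported here. The genes and lists were chosen with earlier results of these data known. Antisense or overlapping genes and near-identical copies (the actins) could share reads. Promoter sequences came from RefSeq (GRCm38.p6) and gene positions from GENCODE M21.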

Additional observations from a re-analysis of the deposited data

How the results depend on the processing

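Over 16 alternatives (other scalings, DESeq2, limma-voom, no expression filter, other cell filters, thinned cells, a replicate block and leaving out each library), between 9 and 14 of the 36 genes were higher and between 5 and 7 lower. Of the 17 called genes, 13 kept their call in all 16: Actg2, Tagln2, Myh11, Myh9, Myh10, Mylk, Tpm1, Tpm2, Des, Ppp1r12a, Rock1, Mustn1 and Susd5. Smtn lost it in 6 alternatives, Ppp1r14a in 11, Synm in 2 and Myl9 in 1. Tpm4 gained a call in 5, Myl6 in 3, and Cnn1, Cnn3, Tpm3, Ppp1cb and Myocd in 1 each. A genotype left with 1 library was assumed to vary like the other. Calls over all features moved with the setting too. They were 1327 higher and 1611 lower of 14474 in the first fit, and 1585 and 1455 with library totals alone. With no expression filter they were 1972 and 2113 of 21103, and in thinned cells 1057 and 1277 of 12968. The part of such shifts in the counts of the 36 genes was not tested. No called gene changed sign. Direction changed for uncalled genes only. Actg1 was at -0.0051 without cells holding markers of another type and -0.0017 in thinned cells, and Srf at -0.036 in thinned cells. With 1 library left out, log2 differences ranged from -0.036 to 0.050 for Actg1, -0.031 to 0.12 for Tagln, -0.019 to 0.11 for Cnn2, -0.089 to 0.00045 for Vim, -0.017 to 0.12 for Ppp1r12b, -0.024 to 0.083 for Rock2, -0.076 to 0.43 for Myocd, -0.088 to 0.24 for Srf and -0.052 to 0.14 for Mrvi1. The gain in the Myh11 share, 4.72 percentage points, moved by more than its SD, to 4.85 under the stricter cell filter, 4.53 without cells holding markers of another type and 4.50 as a mean over thinned cells. The summed smooth muscle isoforms ranged from 0.13 to 0.23 (log2) with 1 library left out. The cause of these shifts was not tested.

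With the replicate number as a block, 10 genes were higher and 5 lower (Smtn and Ppp1r14a no longer passed). The labels do not say that a number marks a shared batch, and deviations of same-numbered libraries did not go together (r = -0.0047 over 5743 features), so the paired fit was not used. Over all features, 1327 were higher and 1611 lower in the fit without a block, and 1523 and 1751 in the fit with it.

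In simulated data of 14463 features with 2 libraries per genotype, 69 of 100 planted log2 differences of 0.5 and 100 of 100 of 1 were called, with 13 false calls. Smaller differences were not simulated. Every simulated feature had the same dispersion, and far fewer features were changed than were called in the data. These rates need not hold for the data.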

Other observations

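The reporter transcript eGFP, which marks recombined cells and is expressed from a locus other than Myh11, was at 5691 and 5885 CPM (WT) against 7914 and 7653 CPM (KO). It rose in KO (log2 difference 0.43, SE 0.05, adjusted p = 0.000734), close to the log2 difference of 0.42 for Myh11. The unrecombined reporter transcript, tdTomato, was at 0.0287 (WT 1), 0.142 (WT 2), 9.97 (KO 1) and 6.75 CPM (KO 2) (1 and 7 UMIs against 592 and 347), and it rose in KO (log2 difference 6.43, SE 0.40, adjusted p = 4.02e-05). Across thinned cells of a library, eGFP and Myh11 had Pearson's r of -0.30 and -0.31 in the WT libraries against -0.26 and -0.23 in the KO libraries. Acta2, which did not pass between genotypes, had r with eGFP of 0.30 and 0.33 (WT) against 0.25 and 0.30 (KO), and Tpm2 had 0.21 (WT 1), 0.24 (WT 2), 0.17 (KO 1) and 0.20 (KO 2). These correlations are descriptions over cells that share a library and a fixed total, and eGFP was chosen for them after its level had been seen.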
